A study of Mus musculus with 6 samples.

Results

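The genes described here are those of the brain endocannabinoid system: the cannabinoid receptor gene Cnr1 and the enzyme genes Dagla, Daglb, Mgll, Faah, Napepld, Abhd6 and Abhd12. They were chosen by name, and all 8 had a row among the 55367 rows of the count table. All 8 also had enough counts to be among the 16976 genes tested, with 333 to 6745 counts per library. RNA-seq was performed on cultured cortical cells from C57BL/6J pups at postnatal day 1 (P1), kept for 2 days in vitro. WT and Fmr1-KO mice gave 3 libraries each, and the libraries held 30348556 to 35126207 counts. Fmr1-KO mice lack FMRP, an RNA-binding protein that represses translation and whose loss causes fragile X syndrome, and no other treatment or allele is named for either genotype. The labels do not say how many pups or which sexes entered a library. The study describes its triplicate samples as independently derived, without saying whether they came from different pups or litters. P values therefore measure the spread between these libraries, and how much of it is technical is not known.

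CB1, the product of Cnr1, is a receptor coupled to Gi/o proteins that sits mainly on axons and axon terminals and dampens transmitter release. Its 2 main lipid ligands are 2-arachidonoylglycerol (2-AG) and anandamide. Diacylglycerol lipases make 2-AG on demand after Gq-coupled receptors such as mGluR5 have activated phospholipase C, and 2-AG then travels back to the presynaptic axon. In the newborn cortex the same pathway takes part in the growth and guidance of axons. Dagla mRNA is among those reported to be bound by FMRP, and signalling from mGluR5 through 2-AG is known to be disturbed in Fmr1-KO mice.

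Fmr1, the targeted gene, was counted 4113, 3710 and 3656 times in WT and 1761, 1879 and 1972 times in Fmr1-KO, so every Fmr1-KO library lay below every WT library (log2 fold-change -0.98) and part of the mRNA was still counted. The labels call the cells cortical neurons, and the study depleted astrocytes and myelin before plating, but glial transcripts were present. The 8 astrocyte markers summed to 4944 to 5071 CPM (counts scaled to library size) in WT and 4295 to 4666 CPM in Fmr1-KO. The 12 pan-neuronal markers summed to 5069 to 5207 and 4340 to 4548 CPM. Such sums depend on which genes are listed and on their lengths, so they do not give the share of each cell type. Gfap alone averaged 2648.9 CPM in WT. By edgeR's quasi-likelihood test, 11 of 12 pan-neuronal and 9 of 9 oligodendrocyte lineage markers were lower in Fmr1-KO. In turn, 10 of 10 proliferation markers and 5 of 5 tested intermediate progenitor markers were higher. Other lists were mixed: 3 of 9 excitatory neuron markers were lower and 5 higher. Of 8 astrocyte markers 5 were lower and 2 higher, and of 9 neural progenitor markers 1 was lower and 3 higher. Among all tested genes, 21.9% were lower and 20.7% higher by the same test. No marker in these lists was at 0 in all libraries. Xist averaged 305.5 ± 7.34 CPM in WT and 915.7 ± 96.4 CPM in Fmr1-KO (SD, n = 3 for each), and 4 Y-linked genes summed to 110.9 to 114.1 CPM in WT and 87.1 to 97.3 CPM in Fmr1-KO. No member lies on a sex chromosome. The part of these differences in the results below was not tested, and in bulk RNA fewer cells of a type and less RNA per cell cannot be told apart.

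Of the 8 genes, 4 were lower (Faah, Dagla, Abhd12 and Mgll), 1 was higher (Napepld) and 3 did not pass the threshold (Cnr1, Daglb and Abhd6) when Fmr1-KO was compared with WT (threshold of 0.05 on edgeR's adjusted P). Over all tested genes, 21.9% were called lower and 20.7% higher. Among genes averaging 10 CPM or more, as these members do, 26.2% were lower and 24.7% higher. With so many genes called, 4 lower members of 8 is a description and not a result about the group. The median log2 fold-change of the 8 genes was -0.10, against 0.01 over all tested genes. When a fold change above 1.2 was required, Faah alone was called (adjusted P 0.00446), where 7.89% of all genes were called lower and 5.20% higher.

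**Figure D1:**
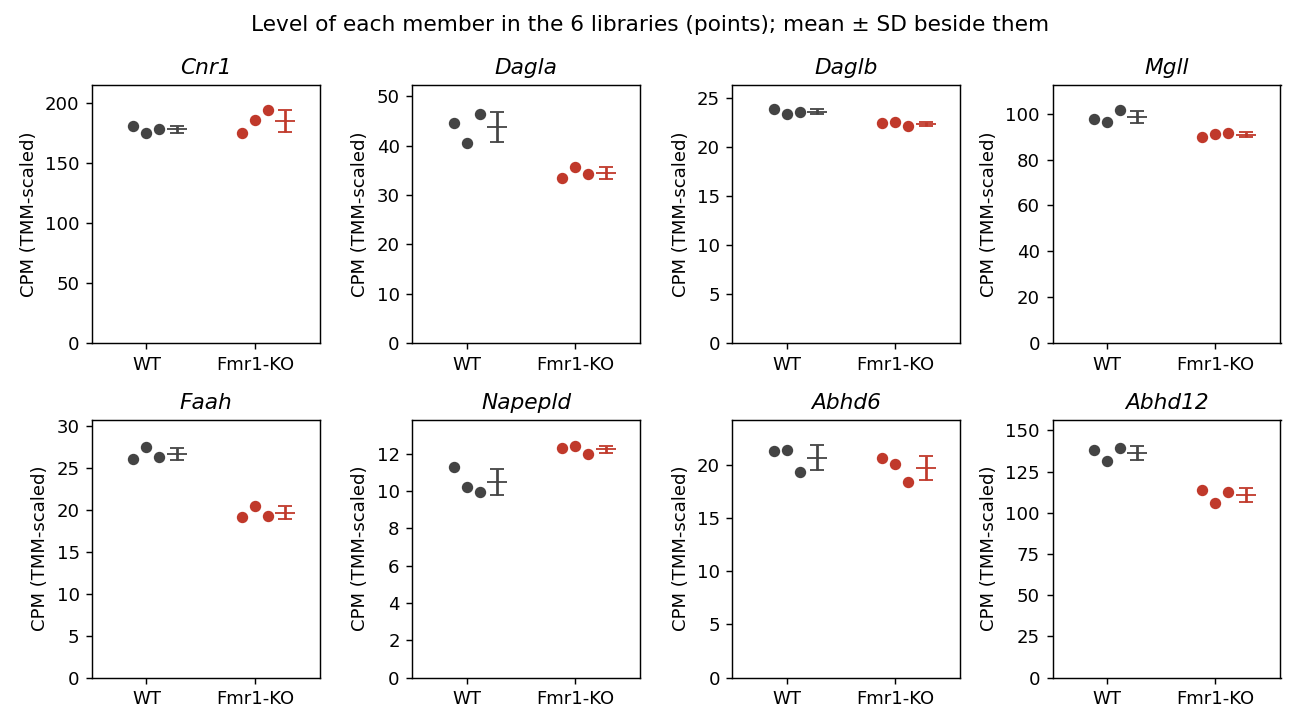
CPM (linear axis), scaled by the trimmed mean of M-values (TMM), of each member in the 3 WT and 3 Fmr1-KO libraries (points), with the mean and SD beside them; every axis starts at 0. The genotypes do not overlap for Dagla, Daglb, Mgll, Faah, Abhd12 and Napepld, and overlap for Cnr1 and Abhd6.

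The promoters of 3 members that were called are shown because Faah and Mgll fell and Napepld rose. The sequences are from RefSeq (GRCm38.p6) and hold the 250 bases before an annotated start, read 5′ to 3′ on the strand of the gene. Capitals mark GC boxes (GGGCGG on either strand) and E-boxes (CACGTG). Faah is read on the minus strand of chr4:116017925-116018174, Mgll on the plus strand of chr6:88724162-88724411, the upstream of its 2 starts, and Napepld on the minus strand of chr5:21701623-21701872.
Faah: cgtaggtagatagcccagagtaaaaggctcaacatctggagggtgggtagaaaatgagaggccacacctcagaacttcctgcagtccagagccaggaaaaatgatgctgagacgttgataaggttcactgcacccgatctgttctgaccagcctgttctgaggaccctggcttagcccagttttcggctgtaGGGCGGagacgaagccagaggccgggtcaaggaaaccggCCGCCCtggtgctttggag
Mgll: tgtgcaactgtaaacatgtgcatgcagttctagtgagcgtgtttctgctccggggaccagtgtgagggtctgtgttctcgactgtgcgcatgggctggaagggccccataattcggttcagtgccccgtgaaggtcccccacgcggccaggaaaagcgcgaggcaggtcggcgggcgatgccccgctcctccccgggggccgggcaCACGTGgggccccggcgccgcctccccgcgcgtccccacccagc
Napepld: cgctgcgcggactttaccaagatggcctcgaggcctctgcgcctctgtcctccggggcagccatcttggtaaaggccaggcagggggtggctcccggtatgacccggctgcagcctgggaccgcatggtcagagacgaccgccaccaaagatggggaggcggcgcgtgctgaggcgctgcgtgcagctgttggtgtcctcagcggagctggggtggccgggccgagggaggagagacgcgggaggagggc

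The Faah window held 2 GC boxes, that of Mgll held 1 E-box, and that of Napepld held neither. The window before the other Mgll start, chr6:88724454-88724703 and not shown, held 1 GC box and 0 E-boxes. Its G and C content was 74.8%. No TATA box (TATAAA) or CCAAT box (CCAAT) was found on either strand of the 3 windows shown. None of these motifs overlaps another as searched. Among 32851 RefSeq promoter windows of the same length, some of them from the same gene, 32.7% held a GC box, 6.02% an E-box, 12.4% a TATA box and 33.8% a CCAAT box. The G and C content was 55.6% for Faah, 68.0% for Mgll and 69.6% for Napepld, with a median of 52.4% over all windows. The table held promoters of 6 of the 8 members, leaving out Dagla and Abhd12. These letters describe the windows and say nothing of which factors act there.

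Cnr1 lies on the plus strand of chromosome 4 from 33924593 to 33948831 (GRCm38, as for all coordinates of genes given here). It had 180.7, 174.6 and 178.1 CPM in the WT libraries and 175.0, 185.2 and 193.9 CPM in the Fmr1-KO libraries. The genotypes overlapped, with one Fmr1-KO library inside the range of WT. The log2 fold-change was 0.06 (SE 0.04; 95% interval -0.02 to 0.13; adjusted P 0.225 by edgeR), so that the interval of the difference ran from a decrease of 1.29% to an increase of 9.35%. The depth of 5668 to 6745 counts per library made counting error small (1.33% at the lowest count), and a change as large as that of Faah lies outside the interval.

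The level of Cnr1 was also set against pan-neuronal and GABAergic interneuron markers. The 9 excitatory neuron markers summed to 615.4 to 626.5 CPM in WT and 604.9 to 636.1 CPM in Fmr1-KO. No ratio of Cnr1 to them was computed. Relative to the sum of the 12 pan-neuronal markers, the log2 ratio of Cnr1 was -4.82, -4.90 and -4.83 in WT and -4.64, -4.55 and -4.55 in Fmr1-KO. Every Fmr1-KO library lay above every WT library, and the log2 ratio was 0.27 higher on average. The size depended on the weighting: with the same weight for each marker the log2 difference was 0.70 (exact permutation test, P = 0.1). A ratio within a library does not depend on the scaling between libraries. An exact permutation test (2-sided) gave P = 0.1, the smallest that 3 against 3 libraries allow, and 0.117 after adjustment over the 7 ratios tested. Relative to 12 GABAergic interneuron markers, whose cells include the CCK-type interneurons richest in CB1, the log2 ratio was -2.27, -2.31 and -2.34 in WT and -2.42, -2.29 and -2.36 in Fmr1-KO. These overlapped (exact permutation test, P = 0.4, adjusted P 0.4). The interneuron markers were not of one kind: Sst fell from 43.6 ± 3.04 CPM in WT to 7.53 ± 0.611 CPM, and Dlx1 rose from 257.0 ± 7.82 CPM to 354.3 ± 16.9 CPM (SD, n = 3 for each). When each marker was given the same weight, the difference in log2 ratio changed sign, from -0.05 to 0.44 (exact permutation test, P = 0.1). Cck rose from 16.9 ± 1.16 to 27.6 ± 0.562 CPM, and bulk RNA does not show which cells held it. Vip fell from 1.06 ± 0.21 to 0.0737 ± 0.065 CPM, the latter on 4, 3 and 0 counts in the Fmr1-KO libraries. The 6 markers of CCK-type interneurons had 2 lower and 1 higher gene, beside 21.9% lower and 20.7% higher over all tested genes. They summed to 75.3 to 82.3 CPM in WT and 81.4 to 85.4 CPM in Fmr1-KO. Adarb2, which is also among the 12 GABAergic markers, was the largest part of that sum (means of 49.7 CPM in WT and 45.4 CPM in Fmr1-KO).

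The genes whose pattern over the 6 libraries was most like that of Cnr1 were Eme2, Cwf19l1 and Mok. Their log2 fold-changes were 0.06, 0.03 and 0.08, and like Cnr1 none of them passed the threshold. Whether they share regulation with Cnr1 was not tested. The measure was the root mean square difference of log2 CPM after centring each gene, which was 0.0157, 0.0179 and 0.0210 for these 3 and had a median of 0.0952 over 10762 genes averaging 10 CPM or more. Cnr1 and Daglb stand on the list of targets of nonsense-mediated mRNA decay (NMD) that the study drew up in N2A cells, and the other members do not. Both were among the members that did not pass the threshold. The study also set the levels of some targets against their pre-mRNA, and reports targets whose enhanced decay was hidden by raised synthesis. Counts over exons do not measure pre-mRNA, so they do not show whether NMD of Cnr1 or Daglb changed. In GENCODE M21, Cnr1 has no transcript annotated as an NMD target, while Dagla has 1, Mgll has 2 and Abhd12 has 3. Counts summed by gene do not separate these transcripts.

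The receptor partner genes Cnrip1 and Sgip1 were lower. Cnrip1, which encodes a protein that binds the tail of CB1, had 59.3, 64.3 and 62.5 CPM in WT and 41.9, 42.2 and 44.8 CPM in Fmr1-KO, a log2 fold-change of -0.53 (SE 0.04; adjusted P 2.51e-09 by edgeR). The genotypes were far apart compared with the spread within each. Per kilobase of exon, the ratio of Cnr1 to Cnrip1 was 1.78 in WT and 2.67 in Fmr1-KO (exact permutation test, P = 0.1, the smallest possible here, and adjusted P 0.117). Sgip1, an endocytic protein that associates with CB1, had 101.4 to 103.2 CPM in WT and 77.1 to 83.9 CPM in Fmr1-KO (log2 fold-change -0.33, SE 0.04). The second cannabinoid receptor gene, Cnr2, which is mainly a gene of immune cells, had 8 to 15 counts per library, and its log2 fold-change of 0.01 had an interval from -0.74 to 0.75. Gpr55, a further lipid receptor, had 9 to 19 counts and a log2 fold-change of -0.34 with an interval from -1.07 to 0.38. Changes inside these wide intervals could not be told from none. Trpv1, an ion channel that anandamide opens, had 1 to 4 counts, and Gpr119 had 0 in all libraries.

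Of the enzymes of 2-AG synthesis, Dagla fell and Daglb did not pass the threshold. Dagla encodes the diacylglycerol lipase that makes most synaptic 2-AG and lies on the minus strand of chromosome 19 from 10245265 to 10304877. It had 44.7, 40.5 and 46.4 CPM in WT and 33.4, 35.7 and 34.2 CPM in Fmr1-KO. All Fmr1-KO libraries were below all WT libraries, and the WT libraries were more spread. This was a log2 fold-change of -0.35 with an SE of 0.05 (edgeR, adjusted P 9.54e-06), a decrease of 21.5% with a 95% interval of 15.5% to 27.1%. Daglb encodes the second diacylglycerol lipase, which is prominent in microglia, and lies on the plus strand of chromosome 5 from 143464584 to 143505942. It had 23.9, 23.4 and 23.6 CPM in WT and 22.5, 22.6 and 22.2 CPM in Fmr1-KO. The libraries were close within a genotype and did not overlap, but the log2 fold-change of -0.07 (SE 0.05; 95% interval -0.18 to 0.03) did not pass the threshold (adjusted P 0.270 by edgeR). In all, 5 members were without overlap and lower and 1 was without overlap and higher, where 26.3% and 25.4% of all tested genes were so. The Dagla to Daglb ratio per kilobase of exon was 3.08 in WT and 2.55 in Fmr1-KO, and 1.53 and 1.27 with the length of the longest coding transcript, which leaves the difference between genotypes as it was. Its log2 value was lower in every Fmr1-KO library than in every WT library, by 0.27 on average (exact permutation test, P = 0.1, adjusted P 0.117).

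Genes that act before the diacylglycerol lipases were also changed. Grm5, which encodes mGluR5, had 108.2, 106.6 and 97.9 CPM in WT and 57.7, 53.2 and 55.1 CPM in Fmr1-KO (log2 fold-change -0.91, SE 0.04). Of the 9 listed Gq-coupled receptors, their G proteins and Homer scaffolds, 6 were lower, 1 was higher and 2 did not pass the threshold, beside 21.9% lower and 20.7% higher over all tested genes. The muscarinic receptor genes Chrm1 and Chrm3 had log2 fold-changes of -0.95 and -1.01. Homer1 and Homer2, scaffolds that tie mGluR5 to its partners, fell (-0.45 and -0.31), as did Gna11 (-0.13), while Homer3 rose (0.25). Among 8 genes of 2-AG precursor supply, 2 were lower and 2 were higher. Plcb1, the phospholipase C that follows mGluR5 in cortex, fell from 77.6 ± 3.35 CPM in WT to 51.6 ± 2.19 CPM in Fmr1-KO (SD, n = 3 for each; log2 fold-change -0.59). Plcg1 (0.13) and Plcd1 (0.30), phospholipases C of other classes, rose. Plcb2, a blood-cell member of the family, was under 1 CPM on average in both genotypes, and its log2 fold-change of -0.98 (SE 0.30) was -0.67 without Fmr1-KO replicate 1, where it no longer passed (adjusted P 0.0827).

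**Figure D2:**
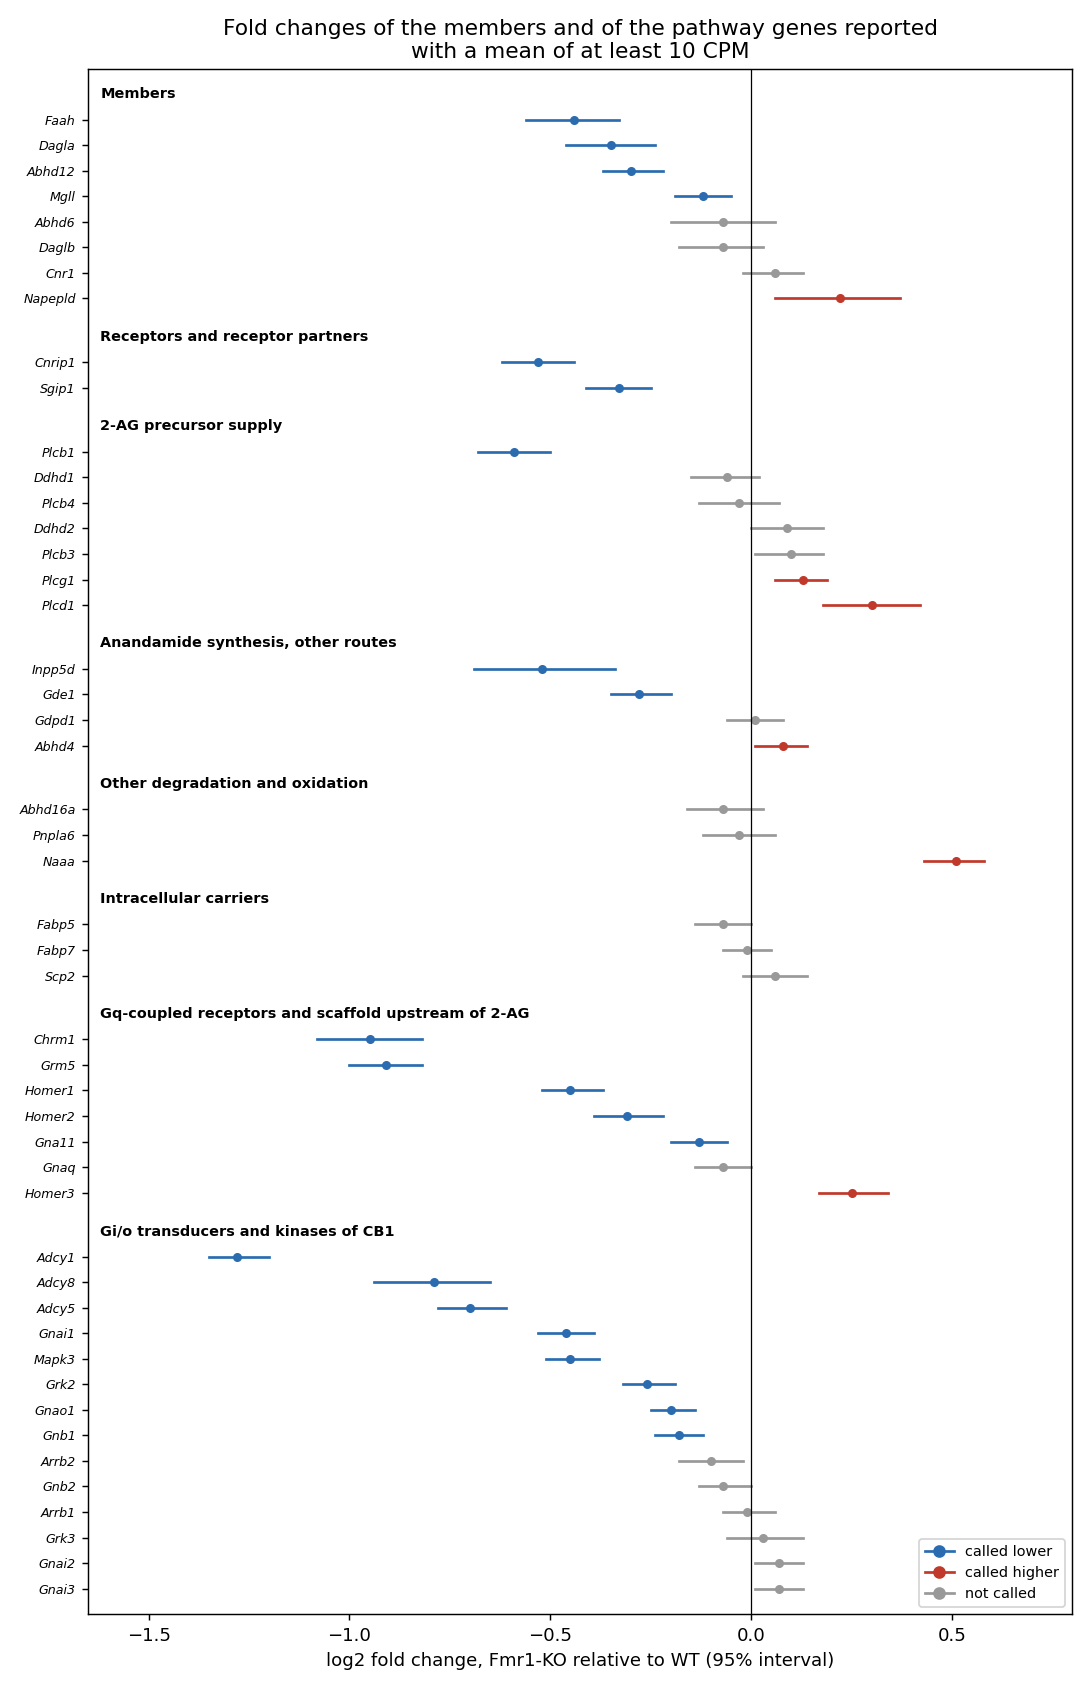
Log2 fold changes of Fmr1-KO relative to WT with 95% intervals for the 8 members and the pathway genes reported here that average 10 CPM or more, grouped by role; blue marks genes called lower, red called higher and grey not called. Grm5, Chrm1 and Adcy1 lie farther to the left than any member, and Naaa farther to the right.

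The hydrolases that break down 2-AG all had negative log2 fold-changes, from -0.30 to -0.07. Abhd12, which also hydrolyses lysophosphatidylserine and is abundant in microglia, lies on the minus strand of chromosome 2 from 150832493 to 150904741. It had 138.0, 131.5 and 139.5 CPM in WT and 113.7, 105.9 and 112.8 CPM in Fmr1-KO. The genotypes were well apart, with a log2 fold-change of -0.30 (SE 0.04; adjusted P 7.21e-07 by edgeR). The 9 microglia and macrophage markers summed to 178.4 to 197.6 CPM in WT and 108.6 to 119.7 CPM in Fmr1-KO. Of these markers 7 were lower and none was higher, beside 21.9% lower and 20.7% higher over all tested genes. Daglb, named above as prominent in microglia, had a log2 fold-change of -0.07 and did not pass the threshold (adjusted P 0.270 by edgeR). Whether the fall of Abhd12 is tied to microglia was not tested. Mgll encodes monoacylglycerol lipase, the main 2-AG hydrolase of nerve terminals, which is also made by astrocytes. It lies on the plus strand of chromosome 6 from 88724412 to 88828360 and had 97.8, 96.5 and 101.8 CPM in WT and 89.8, 91.4 and 91.7 CPM in Fmr1-KO. The gap between genotypes was small, with a log2 fold-change of -0.12 and an SE of 0.03 (edgeR, adjusted P 0.00852). It was -0.10 without WT replicate 3, where the call was lost (adjusted P 0.0565). Abhd6, a membrane hydrolase of the postsynaptic side, lies on the plus strand of chromosome 14 from 8002902 to 8056763. It had 21.3, 21.4 and 19.3 CPM in WT and 20.6, 20.1 and 18.4 CPM in Fmr1-KO, which overlapped. Its log2 fold-change of -0.07 (SE 0.06) had an interval from -0.20 to 0.06 (adjusted P 0.420 by edgeR). It was -0.12 without WT replicate 3 and -0.02 without Fmr1-KO replicate 3.

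Per kilobase of exon, Mgll made up 25.4% ± 0.426 of the 3 hydrolases in WT and 27.4% ± 0.807 in Fmr1-KO, and Abhd12 made up 63.2% ± 0.649 and 59.9% ± 1.14 (SD, n = 3 per genotype). The log2 ratio of Mgll to the sum of the other two was higher in every Fmr1-KO library, by 0.14 on average (exact permutation test, P = 0.1, adjusted P 0.117). The ratio of Dagla to Mgll, one enzyme of synthesis against one of breakdown, was 0.392 in WT and 0.334 in Fmr1-KO. Its log2 value was -1.31, -1.43 and -1.31 in WT and -1.60, -1.54 and -1.60 in Fmr1-KO, without overlap (exact permutation test, P = 0.1, adjusted P 0.117).

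The enzymes of anandamide went in opposite directions. Faah encodes fatty acid amide hydrolase, which ends anandamide signalling, and lies on the minus strand of chromosome 4 from 115967145 to 116017926. It had 26.1, 27.5 and 26.3 CPM in WT and 19.1, 20.5 and 19.3 CPM in Fmr1-KO. The gap between genotypes was several times the spread within either, and the log2 fold-change of -0.44 (SE 0.06; adjusted P 1.22e-06 by edgeR) was the largest of the 8 members. It amounts to a decrease of 26.3%, with a 95% interval of 20.2% to 32.0%. Napepld encodes the phospholipase D that releases anandamide from its membrane precursor and lies on the minus strand of chromosome 5 from 21662901 to 21701396. It had 11.3, 10.2 and 9.98 CPM in WT and 12.3, 12.4 and 12 CPM in Fmr1-KO. The Fmr1-KO libraries were all above WT, though the nearest WT library was close. This gave a log2 fold-change of 0.22 with an SE of 0.07 (edgeR, adjusted P 0.0213). This gene had the fewest counts of the 8 (333 to 416 per library, with a counting error of 5.48% at the lowest), and its call was lost under DESeq2 (adjusted P 0.0620) and without any one of WT replicate 2, WT replicate 3, Fmr1-KO replicate 1 and Fmr1-KO replicate 2 (adjusted P 0.0554 to 0.0885). The log2 ratio of Faah to Napepld was 0.22, 0.44 and 0.41 in WT and -0.36, -0.27 and -0.29 in Fmr1-KO. It differed by 0.66 on average (exact permutation test, P = 0.1, adjusted P 0.117).

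**Figure D3:**
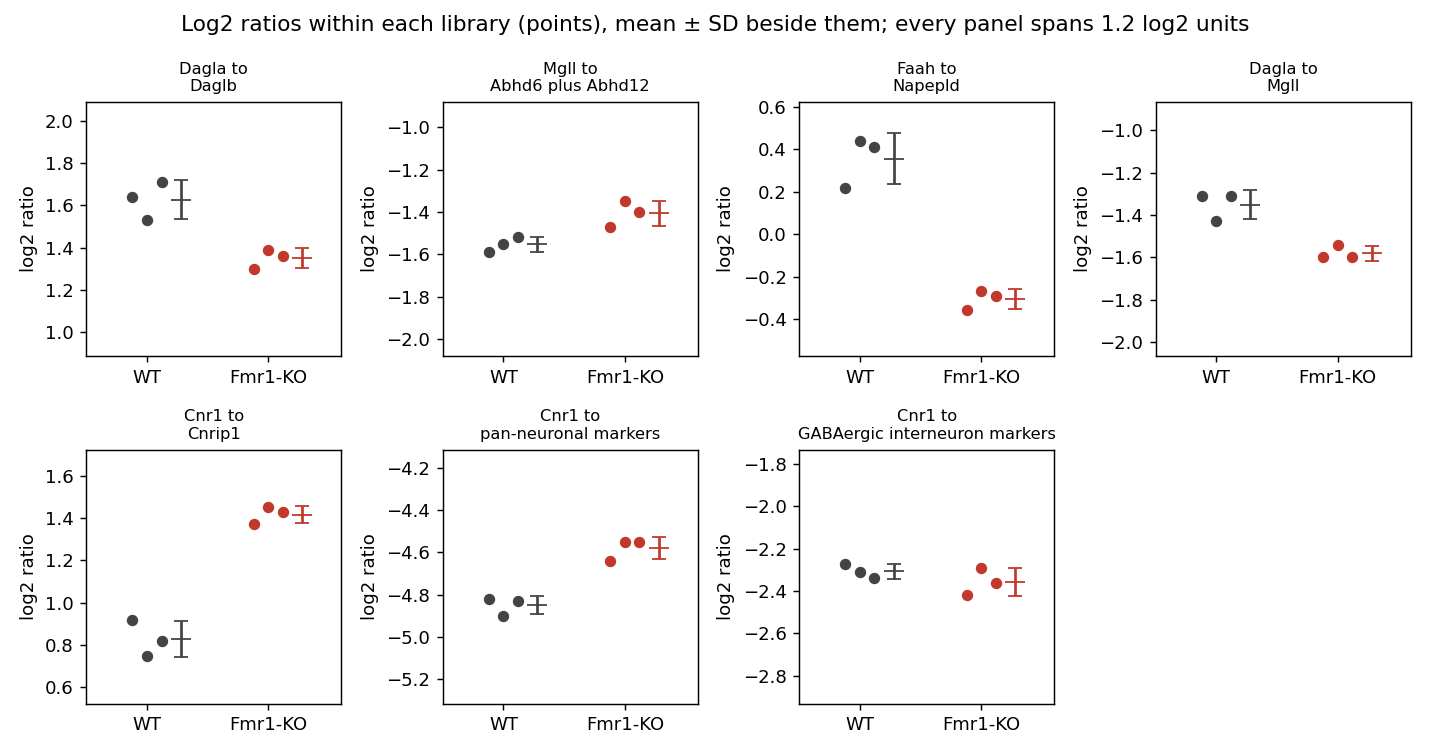
Log2 ratios between genes within each library (points), per kilobase of exon for the ratios of genes and on CPM for the ratios to marker sums, with mean and SD beside them; every panel spans the same number of log2 units. WT and Fmr1-KO are apart in 6 of the 7 ratios and overlap for Cnr1 relative to GABAergic interneuron markers.

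Other routes to anandamide showed changes of both signs. Of 8 tested genes, 3 were lower and 1 was higher, beside 21.9% lower and 20.7% higher over all tested genes. Lists this short cannot be told apart from these shares. Pla2g4e, which makes the anandamide precursor, had 8.11, 7.20 and 8.69 CPM in WT and 2.34, 2.35 and 2.96 CPM in Fmr1-KO, a log2 fold-change of -1.64 (SE 0.12) and the largest among the listed pathway genes. Gde1, a glycerophosphodiesterase of an alternative route, fell (-0.28), and so did Inpp5d (-0.52), a phosphatase best known from immune cells. Abhd4, a lipase of the alternative route, rose by a small amount (0.08, adjusted P 0.0453 by edgeR). That call was lost without any one of the 6 libraries (adjusted P 0.0530 to 0.170). Naaa, a lysosomal acid amidase, had 67.4, 66.1 and 67.2 CPM in WT and 95.9, 93.1 and 95.8 CPM in Fmr1-KO (log2 fold-change 0.51, SE 0.03). It was the only called gene among 5 tested genes of other degradation and oxidation. Ptgs2, which encodes the cyclooxygenase that oxidises 2-AG, had a log2 fold-change of 0.01 with an interval from -0.27 to 0.30. Of 4 carriers that move anandamide in the cytosol, Fabp3 fell (-0.93), while Fabp5, Fabp7 and Scp2 did not pass the threshold.

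Downstream of CB1, 9 of 15 listed genes were lower, 6 did not pass the threshold and none was higher, where 21.9% of all tested genes were lower and 20.7% higher. Adcy1, an adenylyl cyclase that Gi/o proteins restrain, had 260.4, 249.8 and 257.8 CPM in WT and 102.5, 102.1 and 111.7 CPM in Fmr1-KO (log2 fold-change -1.28, SE 0.04). Adcy5 (-0.70) and Adcy8 (-0.79) fell as well. Gnai1 fell (-0.46), and the other inhibitory G protein genes Gnai2 and Gnai3 had log2 fold-changes of 0.07 that did not pass the threshold (adjusted P 0.0516 and 0.0588 by edgeR). Both were called higher when libraries were scaled by their totals only (0.10 for each). Gnao1 (-0.20), Gnb1 (-0.18), Mapk3 (-0.45) and the receptor kinase gene Grk2 (-0.26) were lower. Over all 7 lists, 23 of 55 tested genes were lower and 5 were higher, with a median log2 fold-change of -0.07. Over all tested genes, 21.9% were lower and 20.7% higher. Among those averaging 10 CPM or more, a level that some listed genes do not reach, 26.2% were lower and 24.7% higher. The lists were not tested against these shares.

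The levels of the members were compared per kilobase of annotated exon, which corrects for gene length. In WT the order was Abhd12 (48.3 ± 1.49 CPM per kilobase), Cnr1 (27.6 ± 0.476), Mgll (19.4 ± 0.536), Abhd6 (8.72 ± 0.498), Dagla (7.63 ± 0.524), Faah (3.40 ± 0.0961), Napepld (2.65 ± 0.179) and Daglb (2.47 ± 0.0262; SD, n = 3 for each). Neighbours in this order did not overlap between WT libraries, though Abhd6 and Dagla (8.15 at the lowest and 8.07 at the highest) and Napepld and Daglb (2.52 and 2.50) nearly touched. By the mean over all libraries of both genotypes, Abhd12 was above 94.2% and Daglb above 35.3% of the tested genes with a known length. In Fmr1-KO the first 5 kept their order, and Napepld (3.10 ± 0.0647) was above Faah (2.51 ± 0.0957). The exchange of Faah and Napepld depended on length, since the annotated exons of Faah cover 7834 bases and its longest coding transcript 3827. With the length of the longest coding transcript, Faah was above Napepld in both genotypes (6.96 against 2.66 CPM per kilobase in WT, 5.13 against 3.10 in Fmr1-KO), and Daglb was above Napepld (5.08 in WT).

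**Figure D4:**
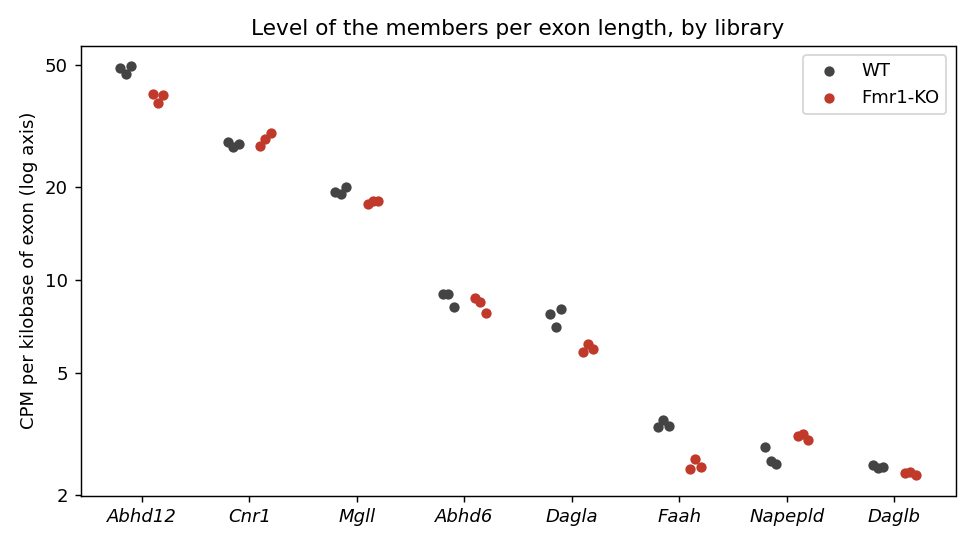
CPM per kilobase of annotated exon (log axis) of the 8 members in each library, ordered by their WT level. Abhd12 is highest in all libraries, and Napepld is the one member called higher in Fmr1-KO, a call that 6 of 15 alternatives did not keep.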

How the data were processed

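The authors deposited raw counts per gene name for 3 WT and 3 Fmr1-KO libraries, without normalization. Per their methods, single-end reads from stranded poly(A) libraries were trimmed with FastP, aligned with STAR to GRCm38.p6 and counted over exons with featureCounts, read as reverse-stranded, so Daglb and Mgll are kept apart from the antisense exons of Rac1 and Gm26588. Their columns were matched to samples by title.

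Genes passing filterByExpr were fitted with edgeR 4.0.16 (R 4.3.3) on the whole table: TMM, glmQLFit and glmQLFTest, 2-sided, with genotype alone in the model, adjusted by Benjamini-Hochberg over 16976 genes. SE is the log2 fold-change divided by the square root of F, and intervals are 95%. The authors used DESeq2, and version 1.42.0 was an alternative. The fit was tested on simulated data. Ratios were tested with scipy 1.17.1. Positions and exon lengths came from GENCODE M21 (GRCm38), an earlier release than the authors' that names 98.6% of tested genes. Replicate pairs differed beyond counting noise (chi-square per degree of freedom 2.09 to 3.49).

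Named genes were Fmr1, the 8 members, genes of 7 pathway lists, and the 3 most like Cnr1; 2 pathway genes are counted in their lists but not reported here by name. Members, pathway lists and markers were chosen with earlier results of these data known, so their counts are descriptions. The X- and Y-linked genes and Cck, Vip, Adarb2, Sst, Npy, Dlx1 and Gfap were singled out after values had been seen. Other marker lists (excitatory neurons, neural progenitors, endothelial and mural cells, fibroblasts) had median log2 fold-changes of 0.09, 0.03, 0.41 and -0.28. Alternatives were DESeq2, other normalizations, filters, a replicate block, a minimum fold change of 1.2, removal of the 20 most abundant genes and leaving out each library.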

Additional observations from a re-analysis of the deposited data

How the results depend on the processing

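No member changed the sign of its log2 fold-change under the 15 alternatives run. Of 120 member values, 110 stayed on their side of the threshold and 10 calls were lost: 4 with a minimum fold change of 1.2 (Dagla, Mgll, Napepld and Abhd12), the others of Napepld and Mgll as given above. Of 521 values of named pathway genes, 480 stayed, 22 calls were lost and 10 were gained (Gnai2, Gnai3 and Fabp5), and 9 values near 0 changed sign without a call. When each library was left out, Ptgs2 ran from -0.0816 to 0.0929, Fabp7 from -0.027 to 0.00304 and Cnr2 from -0.258 to 0.214, and Fabp7 was 0.00049 when scaled by upper quartiles and 0.0177 by totals only. The count of lower members ran from 3 to 4 and of higher members from 0 to 1 when each library was left out. Higher members were 0 under DESeq2, and with a minimum fold change of 1.2 there were 1 lower and 0 higher members, 14 lower and 1 higher pathway genes, and 1340 lower and 883 higher genes in the whole table, as a stricter test calls fewer. Pathway genes called higher were 4 to 6 when each library was left out, 8 when scaled by upper quartiles and 9 when scaled by totals only; the cause was not tested. The log2 ratio of Cnr1 to interneuron markers changed from -0.05 to 0.44 when each marker had the same weight, which follows from Sst and Npy then counting as much as the abundant markers. It ran from -0.0797 to -0.0167 when each library was left out, and the other 6 ratios kept their sign. The difference in log2 ratio of Cnr1 to pan-neuronal markers was 0.70 with equal weights.

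Replicate numbers did not pair the libraries: same-numbered deviations from the genotype means had correlations of -0.0496, 0.0469 and 0.000739. With a replicate block, 4 members were called lower and 1 higher, 23 pathway genes lower and 6 higher, and 3694 of all genes lower and 3488 higher, and no call of a member changed. The length alternatives were chosen after seeing the data. Precision is limited by 3 libraries per genotype, and for genes with few counts, such as Cnr2 and Gpr55, by depth.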
